A study of Mus musculus with 4 samples.

Results

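The variable segments of the T cell receptor that are followed here are the alpha segments Trav14-1, Trav21-dv12 and Trav22 and the beta segments Trbv13-3, Trbv12-2 and Trbv15. They were chosen by name from the gene column of the count matrices, with earlier results of these data known. Their ranks by UMIs, 1 to 3 in each family, may be set by that choice. The listed segments are 6 of the 32285 genes in the table, and 3 of its 128 Trav and 3 of its 35 Trbv genes. The libraries hold CD8 T cells sorted as CD44+CD90.1+ from the tumor-draining lymph node of C57BL/6 mice on day 14 after tumor implantation. The M9 group (label: High Affinity GP33) and the C6M9 group (label: Low Affinity GP33) have 2 libraries each, called biological duplicates. The protocol gives 10 mice for M9 and 35 for C6M9, without saying how they were divided between libraries, so p-values measure the spread between these pooled libraries. Both groups share the sort, the tissue and the day.

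A T cell receptor is a pair of chains, and each chain's first exons come from a variable segment that V(D)J recombination joins to a joining segment (with a diversity segment between them in the beta chain). The joined exon is spliced to a constant gene, Trac for alpha and Trbc1 or Trbc2 for beta, so cells with the same receptor carry the same variable segments. The P14 receptor, a transgenic receptor for the GP33 peptide of lymphocytic choriomeningitis virus, pairs a V alpha 2 chain (the Trav14 family) with a V beta 8.1 chain (Trbv13-3), and P14 cells are often followed by the CD90.1 allele. The labels name GP33 and CD90.1 but not the receptor, so Trav14-1 with Trbv13-3 is called the P14 pair from this background only.

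The segments are shown first because counting tells them apart only where their letters differ. By gene ID all 6 matched the GENCODE vM21 annotation of GRCm38 (mm10), and each has 2 exons on the plus strand. Trav14-1 lies at chr14:53554022-53554558, Trav21-dv12 at chr14:53875984-53876752 and Trav22 at chr14:53926978-53927595. On the beta side, Trbv12-2 lies at chr6:41118851-41119364, Trbv13-3 at chr6:41130147-41130585 and Trbv15 at chr6:41141188-41141658. Trav22 is annotated as a pseudogene with no coding sequence, and the other 5 are annotated as functional variable genes. The last 90 bases of each variable exon, the end that recombination joins, are given 5′ to 3′ from the GENCODE transcripts. The capitals mark the last in-frame cysteine codon, and none is marked for Trav22 because it has no annotated frame.
Trav14-1, chr14:53554469-53554558, plus strand: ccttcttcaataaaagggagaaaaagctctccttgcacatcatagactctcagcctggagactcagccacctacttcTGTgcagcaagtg
Trav21-dv12, chr14:53876663-53876752, plus strand: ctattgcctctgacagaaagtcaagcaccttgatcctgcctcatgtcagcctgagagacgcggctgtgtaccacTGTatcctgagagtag
Trav22, chr14:53927506-53927595, plus strand: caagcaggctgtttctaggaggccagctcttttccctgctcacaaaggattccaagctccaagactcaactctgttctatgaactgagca
Trbv13-3, chr6:41130496-41130585, plus strand: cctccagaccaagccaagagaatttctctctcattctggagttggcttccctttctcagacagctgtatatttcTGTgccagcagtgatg
Trbv12-2, chr6:41119275-41119364, plus strand: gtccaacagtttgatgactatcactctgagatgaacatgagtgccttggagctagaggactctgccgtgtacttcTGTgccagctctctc
Trbv15, chr6:41141569-41141658, plus strand: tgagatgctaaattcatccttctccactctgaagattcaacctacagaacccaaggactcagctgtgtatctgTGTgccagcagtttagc

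The nearest copies of Trav14-1 among the Trav transcripts were Trav14d-1 and Trav14n-1, each with 91.6% identity over the whole transcript, followed by Trav14-2 with 91.2%. Trav14d-1 had 1 UMI in the T cells, Trav14n-1 had 0 and Trav14-2 had 213. The nearest copy of Trbv13-3 was Trbv13-2 (V beta 8.2), with 90.6% identity and 53 UMIs (a UMI, or unique molecular identifier, marks 1 captured RNA molecule). Within the last 90 bases Trav14-1 and Trav14d-1, and Trbv13-3 and Trbv13-2, differed at 3 and 10 positions, in capitals below.
Trav14-1: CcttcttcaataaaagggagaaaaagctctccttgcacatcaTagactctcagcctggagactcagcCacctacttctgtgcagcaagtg
Trav14d-1, chr14:52856077-52856166, plus strand: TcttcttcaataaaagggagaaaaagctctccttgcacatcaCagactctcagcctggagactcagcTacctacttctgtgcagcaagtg
Trbv13-3: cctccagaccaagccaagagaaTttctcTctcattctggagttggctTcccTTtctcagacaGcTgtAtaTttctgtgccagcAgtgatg
Trbv13-2, chr6:41121743-41121832, plus strand: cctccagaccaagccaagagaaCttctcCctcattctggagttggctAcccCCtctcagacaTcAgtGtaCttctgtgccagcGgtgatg
No 90-base stretch of any of the 6 transcripts occurred in another gene's GENCODE transcript. Shorter reads or reads with errors could still be shared between Trav14-1 and its duplicates, so these letters bound the ambiguity only for full-length matches.

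The libraries held 4586 and 1325 barcodes (M9) and 3220 and 1982 (C6M9), of which 9902 T cells passed the filters (4089, 1198, 2884 and 1731). Median depth was 13200 and 20052 UMIs per T cell in M9 and 13978 and 21460 in C6M9, so the second library of each group was the deeper one, and each pair of libraries shared 0 to 4 barcodes. In 99.7% to 99.9% of T cells per library, outside a small Cd4-bearing cluster described later, Cd8a or Cd8b1 had a UMI. Cells were clustered without any receptor variable or joining gene. Clusters were named by their leading gene and by markers, as rebuilt classes rather than the study's own: Kcnc1-led progenitor exhausted-like (2185 cells), Tdrp-led memory-like (2364), Klre1-led effector-like (1003), Gzma-led effector-like (342), Rsad2-led interferon-like (615), Ccnb2-led cycling-like (1171), Hist1h2ap-led cycling-like (741), and a Tnfrsf4-led and an Xcl1-led TCR-activated-like cluster (983 and 431).

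Trav14-1 dominated the alpha UMIs and Trbv13-3 the beta UMIs in every library. Trav14-1 took 76.5% and 72.3% of all Trav UMIs in the M9 libraries and 79.1% and 74.9% in the C6M9 libraries. Over the 4 libraries together this was 15479 of 20327 Trav UMIs, or 76.1% (exact Clopper-Pearson 95% interval 75.6% to 76.7%, counting error only). Trbv13-3 took 91.6% and 92.7% of Trbv UMIs in M9 and 93.6% and 93.6% in C6M9, in all 14431 of 15532, or 92.9%. The alpha share varied by several percentage points within each group, while the beta share varied by about 1 point or less.

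The next segments were far lower. Trav21-dv12 came next among Trav genes with 688 UMIs, 3.38% of the family, and ranged from 2.86% to 3.86% between libraries. Trav22, the pseudogene, followed with 665 UMIs (3.27%, from 3.15% to 3.73%). It alone gave 665 of the 818 UMIs of the 20 Trav pseudogenes. Trbv12-2 came next among Trbv genes with 520 UMIs (3.35%), followed by Trbv15 with 71 UMIs (0.457%). In all, 69 of 128 Trav genes and 22 of 35 Trbv genes had at least 1 UMI, and no other Trav or Trbv gene reached 5% of its family. Of the other Trav14 genes, Trav14-2 had 213 UMIs, Trav14-3 had 189 and Trav14d-3-dv8 had 125.

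Position along the chromosome separated the lesser Trav segments. Trav14-1 ends 666 kb before the start of Trac, Trav21-dv12 ends 344 kb before it and Trav22 ends 293 kb before it. Leaving Trav14-1 out, 4460 of the 4848 other Trav UMIs (92.0%) came from the 34 genes within 700 kb of Trac, a limit set after the values were seen, and 388 from the 93 genes farther away. Of the nearer genes 32 of 34 had a UMI, against 36 of 93 of the farther ones. Many of the farther genes are copies with d or n in their names, such as Trav14d-1 and Trav14n-1. Whether distance or duplication goes with the low counts was not tested. Trbv12-2 ends 10.8 kb before Trbv13-3, and Trbv15 starts 10.6 kb after it, so the 3 listed beta segments are close neighbours on chromosome 6. Trbv15 led Trbv19, Trbv31 and Trbv20 only narrowly (71 UMIs against 64, 64 and 63), and these lie farther from Trbv13-3. Trbv13-2 and Trbv14, which lie nearer to Trbv13-3 than Trbv15 does, had 53 and 9 UMIs. The plot of family share against distance shows these positions.

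**Figure D1:**
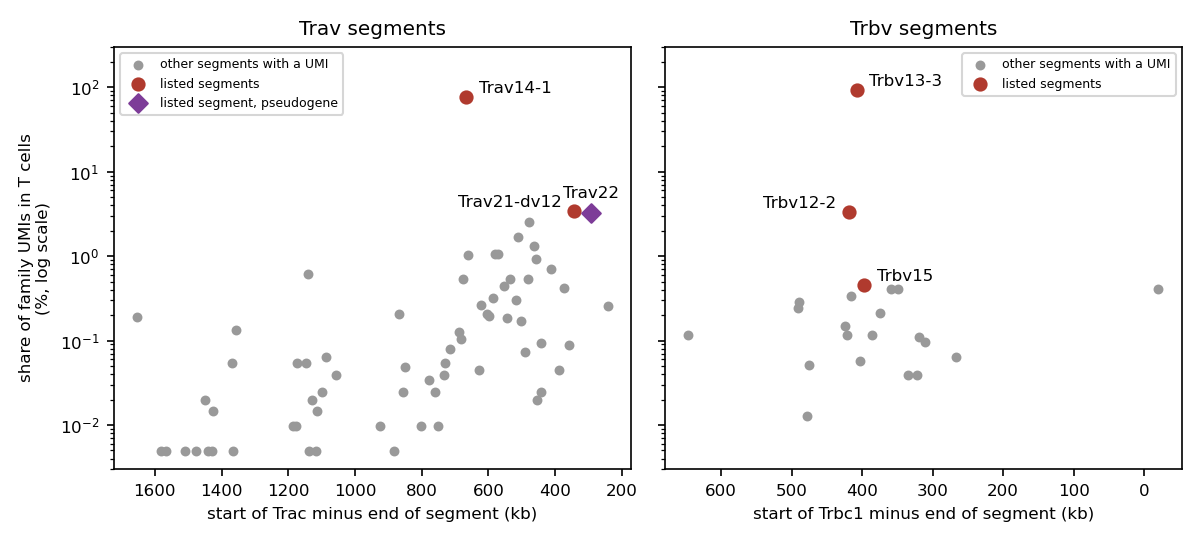
Share of family UMIs over the 9902 T cells (percent, log scale) against the distance in kb from each segment's end to the start of Trac (left) or Trbc1 (right, where a segment beyond Trbc1 has a distance below 0). Each point is a segment with at least 1 UMI. Trav14-1 and Trbv13-3 stand alone at 76.1% and 92.9%, and Trav21-dv12, Trav22 and Trbv12-2 each lie near 3%.

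Variable-segment UMIs were few beside those of the constant genes, in this 3′ chemistry that counts the end of an RNA opposite the variable exon. Trav14-1 gave 9.59 and 10.95 UMIs per 100 Trac UMIs in the M9 libraries and 12.2 and 10.0 in the C6M9 libraries. For Trbv13-3 the values were 1.62 and 2.59 per 100 Trbc1 plus Trbc2 UMIs in M9 and 2.06 and 2.23 in C6M9. A cell without a UMI of a segment is therefore not shown to lack the receptor chain.

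Trav14-1 was detected in 55.5% and 67.9% of T cells in M9 and in 59.9% and 67.3% in C6M9. Trbv13-3 was detected in 49.3% and 71.8% in M9 and in 55.6% and 71.0% in C6M9. Within each group the deeper library was the higher, and the ranges of the groups overlapped. Both segments were found in 4088 of 9902 T cells (41.3%), Trav14-1 alone in 19.1%, Trbv13-3 alone in 16.3% and neither in 23.3%. Cells with both had a median of 18719 UMIs. Among T cells above 40000 UMIs, Trav14-1 reached 68.0% and 71.7% in M9 and 71.5% and 79.3% in C6M9, against 47.3%, 25%, 55.3% and 38.3% below 10000 UMIs. The M9 replicate 2 bin below 10000 UMIs holds 60 cells and the C6M9 replicate 2 bin 94. After each T cell was thinned to 2000 UMIs, which left out 9, 5, 2 and 8 cells, Trav14-1 was detected in 13.5%, 16.4%, 15.8% and 14.0% of cells and Trbv13-3 in 12.2%, 18.8%, 13.6% and 14.3%. Within 1 range of depth the libraries still differed, as Trbv13-3 was in 50.4% of M9 replicate 1 cells and 75.0% of M9 replicate 2 cells between 10000 and 20000 UMIs. After thinning the libraries of each group overlapped those of the other.

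B cells do not normally rearrange these segments. Of 126 B cell-like cells, 63 had under 20 UMIs of 9 T cell genes per 10000 UMIs, a limit placed in a gap of that sum after it was seen. In these 63 cells, with a median of 4801 UMIs, Trav14-1 was in 1 cell (1.59%) and the other 5 segments were in 0, which by the rule of 3 counts allows a share of up to 4.76%. These cells are shallow and were picked for few T cell genes, so their shares are partly set by that choice and do not measure the free RNA in T cells. The other 63 B cell-like cells carried Trav14-1 in 74.6% and Trbv13-3 in 71.4%, against 60.3% and 57.6% of the T cells. Their median of 29811 UMIs was above that of the T cells in every library, and shares at matched depth were not compared. They were left out of every T cell value.

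A further cluster of 67 cells, led by Igfbp4, Ly6c1, Cd4 and Cd40lg and left unnamed, differed from the other T cells in its segments. Trav14-1 was in 3 of 67 of these cells (4.48%), Trbv13-3 in 4 (5.97%) and Trbv12-2 in 5 (7.46%). Their 27 Trav UMIs were spread over 14 genes and their 27 Trbv UMIs over 11 genes, with Trac at 646 CPM (counts-per-million, UMIs of a gene scaled to the summed UMIs) against 632 in the other T cells. Cd4 stood at 92.9 CPM against 1.72, and Cd8a at 211 CPM against 545. Trdc, the constant gene of the delta chain, whose locus lies between the Trav and Traj segments, stood at 49.5 CPM against 403. Median depth was 7095 UMIs. With the 4 libraries together, the shares with a P14 segment were below those of T cells under 10000 UMIs in each library. Within M9 replicate 2 alone, Trav14-1 was in 1 of 4 cells (25%), the same share as in those T cells (25%). The cluster held 0.269% and 0.334% of T cells in the M9 libraries (11 and 4 cells) and 1.21% and 0.982% in the C6M9 libraries (35 and 17 cells), which did not overlap (exact permutation p = 0.333, the smallest possible).

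**Figure D2:**
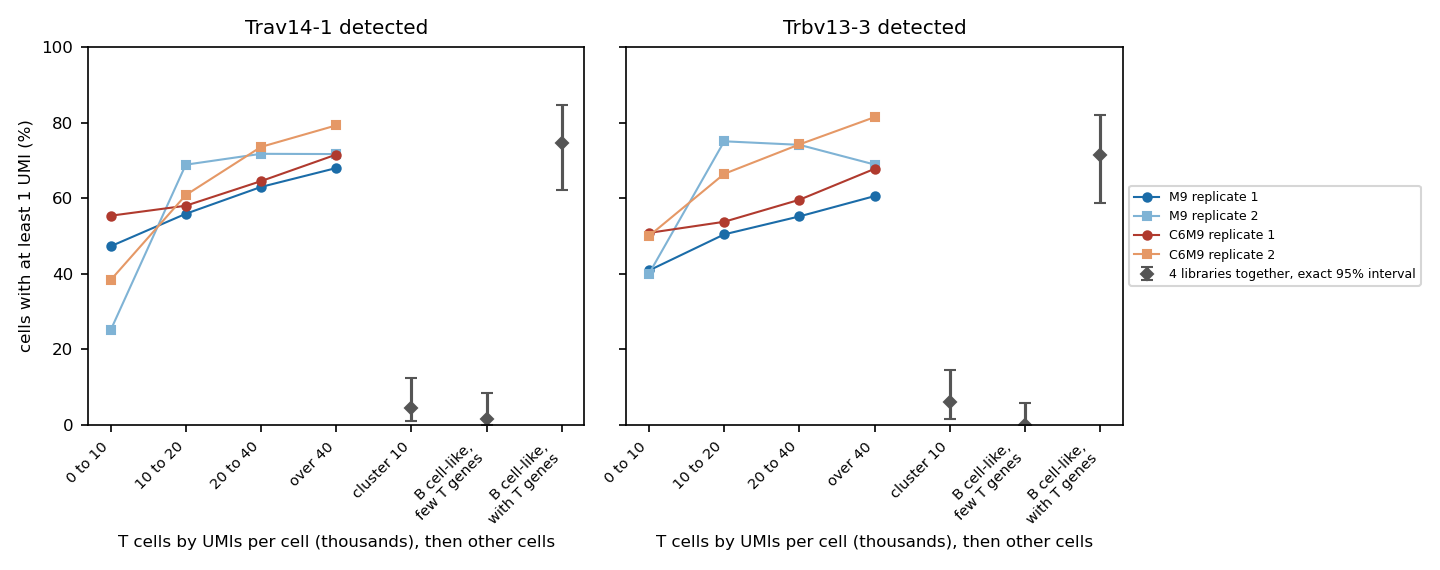
Share of cells with at least 1 UMI of Trav14-1 (left) or Trbv13-3 (right) in T cells binned by UMIs per cell (in units of 1000) for each library, beside 3 other sets of cells with the 4 libraries together and exact 95% intervals. Detection in T cells is higher above 40000 UMIs than below 10000 in all 4 libraries, while cluster 10 and the B cell-like cells with few T cell genes lie under 8%.

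Trav14-1 and Trbv13-3 were found in the same cells more often than in cells of like depth. Of Trav14-1 carriers, 58.2% and 79.1% in M9 and 68.6% and 80.6% in C6M9 also had Trbv13-3. Among cells without Trav14-1, weighted to the carriers' depth in 5 bins per library, the shares were 39.0%, 57.6%, 35.6% and 52.2%. The share with Trbv13-3 was higher among carriers in 4 of 4 libraries, and over all libraries it was 68.4% with at least 1 Trav14-1 UMI, 77.1% with at least 2 and 83.4% with at least 3. Part of the cells without either segment belong to cluster 10, and the part of the classes in this difference was not tested.

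Most carriers of a minor segment also held the P14 segment of the same chain. Of 460 T cells with Trbv12-2, 78.7% also had Trbv13-3, against 63.9% of cells without Trbv12-2 at the same depth. The share was 67.6% against 50.9%, 82.2% against 72.2%, 75.0% against 58.1% and 88.5% against 73.2% in the 4 libraries. Of 591 cells with Trav22, 70.2% had Trav14-1 against 62.8% at matched depth, higher in 4 of 4 libraries. Of 437 cells with Trav21-dv12, 66.1% had Trav14-1, with an exact 95% interval of 61.5% to 70.6% that includes the 64.8% of cells without Trav21-dv12 at that depth. By library the share was below that of depth-matched cells in M9 (54.8% against 58.0% and 61.5% against 69.7%) and above it in C6M9 (68.5% against 62.4% and 78.0% against 72.0%), a difference that was not tested. Of 49 cells with Trbv15, 63.3% had Trbv13-3 against 61.1%, inside its interval of 48.3% to 76.6%.

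The number of UMIs in a carrier differed between these segments. Trav21-dv12 had 2 or more UMIs in 35.9% of its carriers and reached 8 in a single cell, while Trav22 had 2 or more in 11.2% (at most 4) and Trbv12-2 in 9.57% (at most 6). Trav14-1 had 2 or more in 59.4% of its carriers and reached 35, and Trbv13-3 had 2 or more in 58.0% and reached 36. In each library the share for Trav21-dv12 (from 29.0% to 46.2%) was above that for Trav22 (from 9.52% to 13.1%), although both segments have nearly the same total. So about the same number of UMIs lay in 437 cells for Trav21-dv12 and in 591 for Trav22. Carriers of Trav21-dv12 were deeper (median 25120 UMIs) than those of Trav22 (17882), and these shares were not compared at matched depth. Trbv15 had 2 or more UMIs in 24.5% of its 49 carriers.

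**Figure D3:**
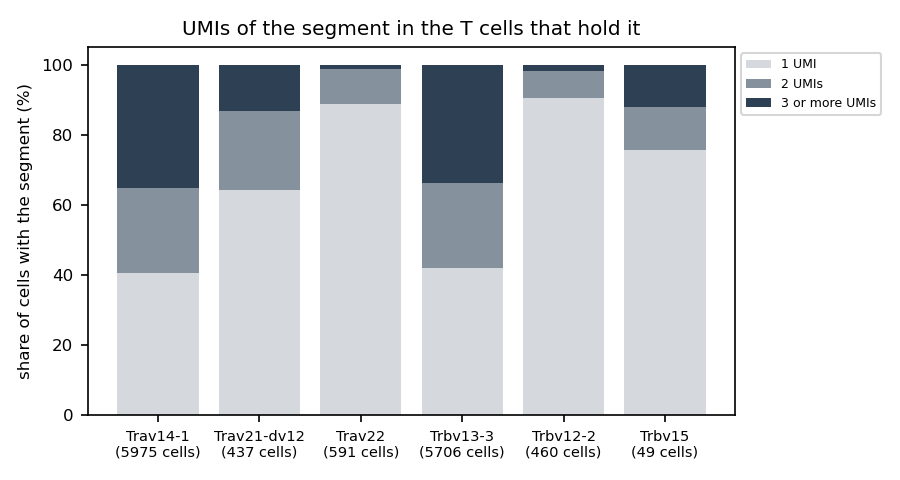
Share (percent) of the T cells holding each listed segment that had 1, 2 or at least 3 UMIs of it, with the 4 libraries together and the number of cells under each bar. Carriers of Trav22 and Trbv12-2 mostly hold 1 UMI, and Trav21-dv12 and Trbv15 lie between them and the P14 pair.

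UMIs of at least 2 different Trav genes were found in 1901 T cells and of at least 2 different Trbv genes in 610. Trav14-1 was among them in 94.1% of the former and Trbv13-3 in 97.0% of the latter. The most frequent partner of Trav14-1 was Trav22 (415 cells), then Trav21-dv12 (289) and Trav16 (187), and the partner of Trbv13-3 was Trbv12-2 in 362 cells, ahead of Trbv31 in 37. By library, 13.5% and 27.5% (M9) and 18.1% and 28.8% (C6M9) of T cells had at least 2 Trav genes, and 3.69%, 10.7%, 5.48% and 9.99% had at least 2 Trbv genes. Both shares were higher in the deeper library of each group. The group means for Trav were 20.5% ± 9.86 (SD, n = 2) in M9 and 23.4% ± 7.57 in C6M9, with an exact two-sided permutation p = 0.667, where 2 libraries against 2 cannot give less than 0.333. For Trbv they were 7.19% ± 4.94 and 7.74% ± 3.19 (exact permutation p = 1). With at least 2 UMIs asked of each segment, the Trav shares were 2.35%, 7.18%, 3.50% and 7.86% and the Trbv shares to 0.416%, 1.00%, 0.451% and 1.50%. Thinned to 2000 UMIs, no library had over 1.42% of cells with UMIs of 2 or more Trav genes. These values leave out 296 barcodes treated as doublets.

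Levels across the 9 named T cell classes, without cluster 10, are a description with no test, since the classes are clusters of the same cells. In CPM, scaled by edgeR's TMM factors over the class sums, Trav14-1 was highest in the Rsad2-led interferon-like class, whose leading genes are interferon-induced, and lowest in the Gzma-led effector-like class, led by a granzyme, in 4 of 4 libraries. In the interferon-like class it stood at 114 and 135 in M9 and 133 and 125 in C6M9. In the Gzma-led class it stood at 23.2 and 23.9 in M9 and 29.9 and 29.1 in C6M9. No library of one class reached any library of the other, and the means over 4 libraries differed 4.78-fold. Trbv13-3 was highest in the same class in 4 of 4 libraries, at 82.0, 125, 121 and 114, and stood at 15.2, 31.6, 24.95 and 23.8 in the Gzma-led class. That was its lowest named class in 3 of 4 libraries (in M9 replicate 2 the Hist1h2ap-led class was lower, at 28.1), and the means differed 4.63-fold.

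Between these ends the order of Trav14-1 by mean was progenitor exhausted-like (101 ± 10.5, SD, n = 4), memory-like (101 ± 13.8), Klre1-led effector-like (80.1 ± 18.2), Tnfrsf4-led (73.7 ± 7.14), Ccnb2-led cycling-like (55.5 ± 8.79), Xcl1-led (40.1 ± 9.56) and Hist1h2ap-led cycling-like (36.1 ± 7.59). Neighbours in that order mostly did not differ beyond their spread, as with the progenitor exhausted-like and memory-like classes or the Xcl1-led and Hist1h2ap-led classes. At the ends, the lowest library of the interferon-like class (114) lay under the highest of the memory-like class (117) and above all libraries of the other classes. The highest library of the Gzma-led class (29.9) lay above the lowest of the Hist1h2ap-led class (28.2). The Gzma-led sum of M9 replicate 2 holds 14 cells.

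Counted per cell, the named classes lay closer together. Trav14-1 had 2.10 ± 0.673 UMIs per cell in the interferon-like class, 2.09 ± 0.662 in the Ccnb2-led and 2.07 ± 0.985 in the Hist1h2ap-led cycling-like class, and 1.64 ± 0.615 in the Gzma-led class (SD, n = 4). The lowest named class by this mean was the Klre1-led effector-like class at 1.36 ± 0.305. Within a library the interferon-like class was above the Klre1-led class in 4 of 4 (1.30 against 0.959, 2.82 against 1.35, 1.83 against 1.43 and 2.45 against 1.70). It was also above the Gzma-led class in 4 of 4, but below the Hist1h2ap-led class in both C6M9 libraries. Median depth ran from 11602 UMIs per cell in the progenitor exhausted-like class and 12455 in the interferon-like class to 43797 in the Gzma-led and 46676 in the Hist1h2ap-led class. Trac, by contrast, stood at 13.9 ± 4.25 UMIs per cell in the interferon-like class, 23.1 ± 7.99 in the Gzma-led class and 28.2 ± 10.3 in the Hist1h2ap-led class.

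In CPM, the constant gene had the same ends with a smaller range. Trac was at 845 ± 43.8 CPM in the interferon-like class and 381 ± 43.6 in the Gzma-led class, again the highest and lowest in 4 of 4 libraries. Set against Trac, Trav14-1 gave 15.1 ± 1.64 UMIs per 100 Trac UMIs in the interferon-like class and 6.99 ± 0.760 in the Gzma-led class. It gave 7.20 ± 1.24 in the Hist1h2ap-led and 8.50 ± 1.42 in the Ccnb2-led class. Per 100 Trbc UMIs, Trbv13-3 gave 3.27 ± 0.777 in the interferon-like class, 1.12 ± 0.262 in the Hist1h2ap-led class and 1.27 ± 0.483 in the Gzma-led class. Between those ends the ratio within a library was 4.31 to 5.63 for Trav14-1 and 1.99 to 2.67 for Trac.

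The minor segments had other orders among the named classes. Trav22 was highest in the progenitor exhausted-like class at 7.61 ± 2.54 CPM and lowest in the Gzma-led class at 0.530 ± 0.401. It led in the progenitor exhausted-like class in 3 of 4 libraries, and in M9 replicate 1 the interferon-like class was higher (5.30 against 4.95). Trav21-dv12 also had its highest mean there, 6.34 ± 3.37, but ranged from 2.83 to 10.9 over libraries, and the other class means lay between 1.75 and 3.64. In M9 replicate 1 its highest class was the Gzma-led class, at 3.08. Trbv12-2 ran from 0.811 ± 0.625 in the Gzma-led class to 3.88 ± 1.66 in the Tnfrsf4-led class among the named classes (13.5 ± 9.66 in cluster 10, from 5 UMIs), with the library spread of neighbouring classes overlapping. Trbv15, with 71 UMIs, was at 0 in at least 1 library in 8 of the 9 classes, so its order is not readable at this depth.

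**Figure D4:**
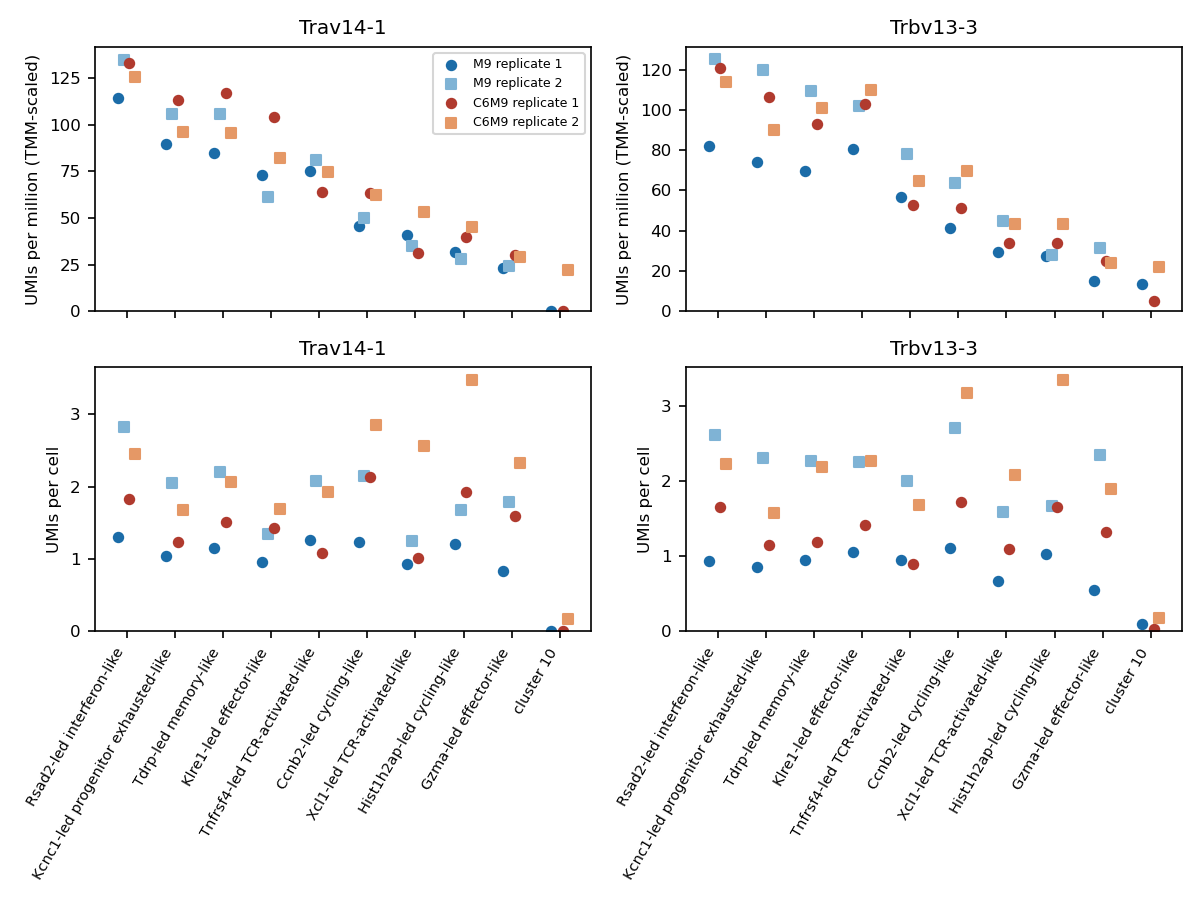
Level of Trav14-1 (left) and Trbv13-3 (right) in each class and library, in TMM-scaled CPM (top) and in UMIs per cell (bottom), for class sums of at least 10 cells. In the top panels the Rsad2-led class is highest in all 4 libraries, in the bottom panels the named classes lie closer together, and cluster 10 lies below the Gzma-led class of the same library in both.

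Genes with the pattern most like each segment were ranked by Pearson's r of log2(CPM + 1) over 39 class by library sums among 8852 genes. These sums share libraries and depth, and r is a description. For Trav14-1 the first were Prr7 (r = 0.93), Manba, Fahd2a, Trdc (r = 0.92) and Gm16152. Without the 3 sums of cluster 10 these fell to 0.77 for Prr7, 0.65 for Fahd2a and 0.84 for Trdc, while r with Trac was 0.42 with and 0.93 without that cluster. For Trbv13-3 the first were Ptpn22 (r = 0.92), a phosphatase that restrains receptor signaling, Man2b1, Gm43647, Rnf138 and Sntb1. Trav22 was closest to the noncoding RNA Ifngas1 (r = 0.95, and 0.94 without cluster 10), then Tm6sf1, 5830432E09Rik, Arhgap9 and Man2b1. Trav21-dv12 was closest to Acsf2 (r = 0.78) and Trbv12-2 to Rnf220 (r = 0.80), both lower without cluster 10 (0.62 and 0.61). Trav14-1 and Trbv13-3 had r = 0.88 with each other, and 0.94 without that cluster.

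C6M9 was compared with M9 to ask whether the segments' levels follow the affinity label. Over all T cells, edgeR's quasi-likelihood test called 811 of 13645 genes at an adjusted p under 0.05 (5.94%), 231 higher and 580 lower in C6M9. It called 0 of the 6 segments, all 6 of which passed the filter on low counts. Of all genes, 3256 had an unadjusted p under 0.05, and none of the 6 segments did. DESeq2 also called 0 of the 6. Trav14-1 stood at 63.3 and 69.9 CPM in M9 and 71.2 and 66.9 in C6M9, so the groups overlapped, and the log2 difference was 0.05 ± 0.09 (SE, edgeR adjusted p = 0.757). Trbv13-3 stood at 52.2 and 78.5 in M9 and 60.2 and 69.7 in C6M9, with both C6M9 libraries between the M9 libraries (log2 difference -0.0047 ± 0.17, edgeR adjusted p = 0.99).

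The minor segments had wider errors. The log2 difference was 0.11 ± 0.23 for Trav21-dv12, -0.09 ± 0.19 for Trav22, -0.27 ± 0.31 for Trbv12-2 and 0.15 ± 0.47 for Trbv15, with edgeR adjusted p from 0.65 to 0.878. As a share of family UMIs, Trav14-1 averaged 74.4% ± 2.94 in M9 and 77.0% ± 2.91 in C6M9 (exact permutation p = 0.667, n = 2). Trbv13-3 averaged 92.1% ± 0.734 and 93.6% ± 0.0171, with both C6M9 libraries above both M9 libraries and the smallest exact permutation p that 2 against 2 allows, 0.333.

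Of the classes, 7 had at least 50 cells in every library and were tested separately. Between 2 and 5 of the 6 segments passed the filter on low counts in a class, and Trbv15 passed in none. No segment was called in any of them, where all genes were called at 0.285% (progenitor exhausted-like), 0.847% (memory-like), 0.905% (interferon-like), 0.358% (Klre1-led), 1.01% (Ccnb2-led), 4.05% (Xcl1-led) and 1.31% (Hist1h2ap-led). The estimates of both P14 segments were above 0 in 7 of 7 tested classes, which share the same libraries. With a library left out, Trbv13-3 could fall below 0 in every tested class but the Hist1h2ap-led class. Trav14-1 could do so in the interferon-like, memory-like and Xcl1-led classes (-0.311 to 0.458 in the last). How many other genes have the same sign in all tested classes was not counted. The Tnfrsf4-led class, with 37 and 28 C6M9 cells, was not tested. Its means went the other way in TMM-scaled CPM over the class sums. Trav14-1 stood at 75.4 and 81.0 in M9 and 63.9 and 74.6 in C6M9. Trbv13-3 stood at 56.9 and 78.1 against 52.7 and 64.9. In the Gzma-led class, also not tested, Trav14-1 was higher in C6M9 (29.9 and 29.1 against 23.2 and 23.9) and Trbv13-3 overlapped. The highest tested estimates were in the Hist1h2ap-led cycling-like class, led by histone genes of S phase. There Trav14-1 stood at 29.2 and 26.2 CPM in M9 and 36.5 and 42.7 in C6M9, and Trbv13-3 at 25.2 and 26.1 against 31.3 and 41.2. Both C6M9 libraries were above both M9 libraries, with log2 differences of 0.51 ± 0.14 (edgeR adjusted p = 0.0847) and 0.50 ± 0.15 (adjusted p = 0.126). With no filter on low counts both passed the threshold (edgeR adjusted p = 0.0133 and 0.0197). That setting called 327 of 16934 genes higher and 285 lower in this class, against 81 and 63 of 10983 in the main fit. DESeq2 called neither segment. Of the alternative fits, 6 left Trav14-1 uncalled and 3 did not, and 7 left Trbv13-3 uncalled and 2 did not. With each library left out, the log2 difference ran from 0.397 to 0.622 for Trav14-1 and from 0.294 to 0.688 for Trbv13-3.

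The next estimates of Trav14-1 were in the Klre1-led class (log2 difference 0.41 ± 0.13, edgeR adjusted p = 0.234) and the Ccnb2-led class (0.38 ± 0.11, edgeR adjusted p = 0.151). Trav21-dv12 in the progenitor exhausted-like class was at 1.17 ± 0.46 (edgeR adjusted p = 0.465). Without M9 replicate 2, Trbv13-3 was at 0.39 ± 0.12 in the memory-like, 0.49 ± 0.15 in the interferon-like and 0.53 ± 0.15 in the Ccnb2-led class. In each of these classes M9 replicate 2 was the M9 library with the higher Trbv13-3. With each library left out in turn, the estimates ran from -0.278 to 0.387, from -0.172 to 0.491 and from -0.0890 to 0.527. Such fits leave a group with 1 library, assumed to vary like the others. With each of the 7 classes weighted equally, Trav14-1 averaged 68.7 and 74.5 CPM in M9 and 86.0 and 79.9 in C6M9. The groups did not overlap (exact permutation p = 0.333, the smallest possible). Trbv13-3 overlapped by this measure (57.7 and 84.7 in M9, 77.4 and 81.6 in C6M9). Trav21-dv12, Trav22 and Trbv12-2 also overlapped, and Trbv15 did not. How many of all genes do not overlap was not counted. The classes' shares of cells differed between the groups, for example 1582 and 364 progenitor exhausted-like cells in M9 against 135 and 104 in C6M9.

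Whether the group difference varied between classes was tested with edgeR over the class sums. Of 11115 genes 522 were called (4.7%), and 0 of the 5 segments tested were, with adjusted p = 0.423 for Trav14-1 and 0.67 for Trbv13-3. DESeq2 called 0 of the 5 as well, and gave no adjusted p for 3 of them. Among the constant genes Trbc1 (edgeR adjusted p = 0.0437, and 0.0580 with DESeq2) and Trbc2 (0.0214, and 0.0111 with DESeq2) passed in edgeR, Trbc1 in no fit without a library and Trbc2 not without either M9 library (0.170 and 0.285).

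**Figure D5:**
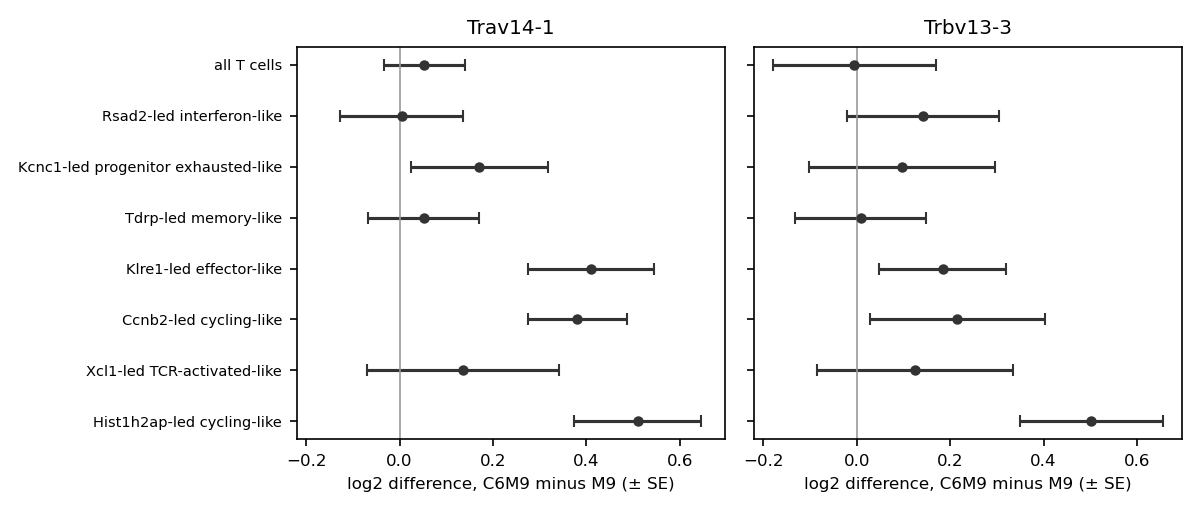
Log2 difference between C6M9 and M9 with its SE for Trav14-1 (left) and Trbv13-3 (right), over all T cells and in the 7 classes tested, from edgeR on summed UMIs (2 libraries per group). The highest estimates, 0.51 and 0.50, are in the Hist1h2ap-led cycling-like class, and no point passed the adjusted threshold.

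Of the other genes of the receptor and its assembly, Cd4 and Trat1 were called between the groups over all T cells. Of the receptor constant genes 7 were in the table and tested, and 0 were called, with Trac at -0.06 ± 0.10, Trbc1 at -0.09 ± 0.11 and Trdc at 0.08 ± 0.09. Tcrg-C4, a gamma chain constant gene, was at -0.95 ± 0.25 (edgeR adjusted p = 0.0658, 0.0433 without M9 replicate 2 and 0.00686 with no filter on low counts). Of 8 CD3 and co-receptor genes 2 fell in C6M9, beside 5.94% of all genes called in either direction: Cd4, the helper co-receptor, from 3.16 and 2.23 CPM to 1.17 and 1.09 (log2 difference -1.28 ± 0.23, adjusted p = 0.021), and Trat1, an adaptor of the receptor complex, from 66.8 and 72.7 to 54.2 and 51.3 (-0.40 ± 0.08, adjusted p = 0.0342). The Cd4 call remained with any 1 library left out (adjusted p from 0.000858 to 0.0499) and without cluster 10 (0.0196). The Trat1 call was lost without C6M9 replicate 1 (adjusted p = 0.145) or C6M9 replicate 2 (0.174). The median log2 difference was -0.05 for that list and -0.01 for all genes tested. Of 27 Trav and 8 Trbv genes tested, 0 were called, and likewise 0 of 4 Traj, 1 Trbj and 7 Trdv and Trgv genes.

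The genes of recombination gave few or no UMIs. Rag1 and Rag2, which cut at the segments' signal sequences, had 0 UMIs in 9902 T cells. Dntt, which adds bases at the joins, had 31 UMIs in 29 cells. Ptcra, the pre-T cell alpha chain, had 207 UMIs in 48 cells, at 0.238 and 0.205 CPM in M9 and 0.461 and 2.59 in C6M9 (log2 difference 2.74 ± 0.79, adjusted p = 0.0875), so C6M9 replicate 2 held most of it. Ptcra passed with DESeq2 (adjusted p = 0.00197), no filter (4.46e-13), a replicate block (0.0350) and without C6M9 replicate 1 (0.000174), and without C6M9 replicate 2 its difference was 1.04 ± 0.68 (0.491). Of this list's 11 genes 8 were tested and 0 called. Of 10 factors that bind receptor enhancers 0 were called over all T cells, with Lef1 the farthest from 0 at 0.15 ± 0.08. In the Xcl1-led class Lef1 rose (0.60 ± 0.14, adjusted p = 0.018) and Trat1 fell (-0.63 ± 0.15, adjusted p = 0.0125), neither of them with DESeq2 (0.0921 and 0.0835). The Lef1 call was lost without M9 replicate 1 (0.211) or C6M9 replicate 2 (0.179), and the Trat1 call without C6M9 replicate 1 (0.130) or 2 (0.0825).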

How the data were processed

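UMI counts per gene and cell were deposited for 4 libraries of sorted CD8 T cells (10x 3′ v3.1 chemistry per the labels' protocols), made by the authors with Cell Ranger 6.0.0 and mm10 per the submitters' processing notes. The annotation release behind the counts is not given in the sources used here, nor whether reads matching several segments were dropped. Barcodes under 500 genes or 1000 UMIs, or over 10% mitochondrial UMIs, were left out. Scrublet's own threshold marked 0, 4, 1 and 5 cells, so the cells with the highest scores were left out instead, at a rate of 0.8% per 1000 barcodes. Counts were clustered with scanpy 1.11.5 (2000 variable genes, 30 principal components, 15 neighbours, Leiden resolution 0.6) without T cell receptor or immunoglobulin variable, diversity and joining genes, and clusters were named from marker lists. Raw UMIs were summed per library, or per library and class, and tested with edgeR 4.0.16 (quasi-likelihood, TMM, filterByExpr) over all genes, with Benjamini-Hochberg adjustment and a threshold of 0.05. Libraries, not cells, were the replicates, and shares were compared by exact two-sided permutation tests. On simulated counts the test was checked before use. Alternatives were DESeq2 1.42.0, other scaling, no filter, a replicate block, doublets kept, every barcode, thinning and each library left out. Intervals are exact Clopper-Pearson at 95% and cover counting error only. Named genes were the 6 segments, any segment above 5% of its family, the other Trav14 and Trbv13 genes with at least 100 UMIs, the 5 genes most like each segment in pattern (mean of at least 5 CPM) and, of each fixed receptor list, up to 4 genes farthest from 0. The Trav limit of 700 kb, the nearest copies, the most frequent partners, cluster 10's genes, Rag1, Rag2, Dntt and Trac were named beyond this rule. The members and lists were chosen with earlier results of these data known. Sequences and positions come from GENCODE vM21 (GRCm38).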

Additional observations from a re-analysis of the deposited data

Results flagged for a closer look

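The difference between C6M9 and M9 varied between the 7 classes for Trbc2, a constant gene of the beta chain, in edgeR's test of the class by group terms (adjusted p = 0.0214, and 0.0111 with DESeq2), with estimates from 0.22 ± 0.12 (SE, log2) in the progenitor exhausted-like class to -0.17 ± 0.13 in the interferon-like class. Without M9 replicate 1 or M9 replicate 2 the adjusted p for Trbc2 was 0.170 and 0.285, and without C6M9 replicate 1 or 2 it was 0.0149 and 0.00332. Trbc1, the other beta constant gene, also passed (edgeR adjusted p = 0.0437), and missed the threshold with DESeq2 (0.0580) and without any single library (from 0.0529 to 0.399). No segment varied between classes at this threshold in either test.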

How the results depend on the processing

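Over all T cells 0 of the 6 segments were called under any alternative run. A change of sign was counted where the main or the alternative fit called the segment, or where both estimates exceeded their SE. None was counted among the 78 alternatives. Since no fit called a segment and all 6 main estimates lay within their SE, no turn could be counted. With each library left out, the log2 difference ran from -0.245 to 0.320 for Trbv13-3. It stayed above 0 only for Trav14-1 (0.0106 to 0.131). Genes called over all T cells numbered 811 (231 higher in C6M9, 580 lower), 1944 with no filter on low counts, 1078 with DESeq2 and from 330 (without C6M9 replicate 1) to 1664 (without M9 replicate 1) with each library left out. Scaling by total UMIs alone gave 125 higher and 763 lower and moved the median of all genes from -0.01 to -0.09 log2. Within the 7 classes, 0 segments were called, 2 with no filter, 0 with DESeq2 and from 0 to 3 with each library left out. Genes called there numbered 866, 1977 with no filter, 471 with DESeq2 and from 647 to 2142 with each library left out. Class by group calls numbered 522, and from 112 to 489 with each library left out. The cause of these changes was not tested. The replicate numbers are shared by the groups only as numbers (correlation -0.06 over 13645 genes), and the fit with the replicate number as a block called 1035 genes (368 higher) over all T cells and 1262 within classes. All 36 family share differences and all 16 differences in cells with more than 1 segment moved by less than 1 SD, as did 40 of 42 carrier shares. A change of sign was not counted in this check. When thinned, the difference in cells with 2 or more Trav genes went from 2.92 to -0.475 percentage points. For Trbv genes it went from 0.548 to -0.156. Thinned shares were too small for a move beyond the larger group SD (9.86 for Trav, 4.94 for Trbv), so these 2 thinned comparisons could not fail. Leaving out 1 of a group's 2 libraries cannot move a difference by more than the larger group SD, so those runs could not fail. In them the difference ran from -4.05 to 9.89 percentage points for cells with 2 or more Trav genes. It ran from -4.35 to 8.10 for Trav14-1 carriers, and from 0.518 to 4.68 for the Trav14-1 family share. The carrier share of Trbv15, 0.256 percentage points higher in C6M9 (0.391% and 0.334% in M9, 0.659% and 0.578% in C6M9), moved to -0.0562 when thinned and 0.324 with doublets kept. A fit that leaves a group with 1 library assumes that it varies like the others.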
